A study of Mus musculus with 6 samples.

Results

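The dendritic cells described here are 136 of the 17362 barcodes sorted as CD45+ immune cells from mouse brain and glioma. A barcode was taken where it held at least 2 unique molecular identifiers (UMIs, 1 per captured RNA molecule) of Xcr1 and Clec9a together, or at least 2 of Ccr7. It could hold at most 2 UMIs summed over 6 microglial genes (Tmem119, Olfml3, Gpr34, Crybb1, Golm1, Slc2a5), at most 2 over 5 border macrophage genes (Mrc1, Pf4, Cbr2, Cd163, Lyve1) and at most 1 over 6 lymphocyte genes (Cd3d, Cd3e, Cd3g, Trac, Nkg7, Cd79a). Of the 136 barcodes, 47 passed through Xcr1 and Clec9a (Xcr1/Clec9a cells), 80 through Ccr7 (Ccr7 cells) and 9 through both. The cells were chosen by the UMIs of these genes, whose levels are therefore no finding. The cells came from 6 libraries of 10x 3' v3 chemistry: 70 from 2 libraries of Rbpj-deleted gliomas (Trp53 and Rbpj both knocked out), 61 from 2 libraries of control gliomas (Trp53 knocked out, Rbpj wild type) and 5 from 2 libraries of healthy brain (both genes wild type). The study's design text gives pools of 9 Rbpj-deleted tumours, 15 control tumours and 9 healthy brains, whereas its protocol describes each mouse in 1 well, so a p-value here reflects only how far these libraries lie apart, part of which may be technical. Early tumours were micro-dissected under GFP light from a Cre reporter. The labels do not say whether immune cells carry either deletion.

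Dendritic cells take up antigen, carry it to lymph nodes and present it to T cells. Type 1 dendritic cells, which bear the chemokine receptor Xcr1 and the dead-cell receptor Clec9a, are known for cross-presenting antigen of dying cells, tumour cells included, to CD8 T cells. On maturation, dendritic cells of any type switch on Ccr7, the receptor for the chemokines of lymph vessels and lymph nodes, lower antigen uptake, and gain costimulatory and inhibitory ligands together.

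Library totals ran from 17430763 to 55229031 UMIs, and 17089 barcodes stayed after 17 with few genes or much mitochondrial RNA and 256 copies of a barcode from another library had been removed; none of the 136 cells was among these, and none shared its barcode sequence with another library, as 413 barcodes did. The median cell held 12925 UMIs among Xcr1/Clec9a cells and 8434.5 among Ccr7 cells, against 6567 among the other kept barcodes. Over all kept barcodes, Rbpj stood at 64.8 and 47.6 CPM (CPM scales a gene's UMIs to all UMIs of the summed cells) in Rbpj-deleted libraries, 89.1 and 87.2 in control libraries and 33.2 and 59.6 in healthy libraries; Trp53 lay between 82.3 and 97.4 CPM in the 6 libraries. The libraries stood apart in the class II gene H2-Eb1, at 6242 and 4274 CPM over the other kept barcodes of Rbpj-deleted libraries, 75.3 and 69.1 CPM in control and 5.49 and 330.1 CPM in healthy libraries. No doublet caller was run, and a second set of cells, 48 barcodes with at least 2 UMIs of Cd209a, a lectin of monocyte-derived and type 2 dendritic cells, under the same limits and none of the above gates, served for comparison.

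The label was checked on genes the rule had not used. Hereafter, values of 3 libraries follow the order Rbpj-deleted replicate 1, Rbpj-deleted replicate 2 and control replicate 1, the libraries that entered the fits between sets. Summed type 1 markers other than Xcr1 and Clec9a (8 genes, Irf8, Batf3, Wdfy4 and Naaa among them) reached 2125, 596 and 2847 CPM in Xcr1/Clec9a cells, against 520, 649 and 628 CPM in Ccr7 cells and 1663, 724 and 735 CPM in Cd209a cells. Xcr1/Clec9a cells of Rbpj-deleted replicate 2 were thus no higher than either comparison, while those of the other libraries stood above both. At least 2 of Wdfy4, Naaa, Irf8, Cadm1, Itgae, Tlr3 and Gcsam were seen in 10 of 10, 2 of 12 and 23 of 24 Xcr1/Clec9a cells. That made 35 of the 47 in all (74.5%, exact 95% interval 59.7 to 86.1), against 28 of 48 Cd209a cells (58.3%, 43.2 to 72.4). The other barcodes, which share free RNA and some of these genes, stood at 39.4%. A UMI of Flt3 or Zbtb46, genes of dendritic cells as a whole, was seen in 6 of 10, 4 of 12 and 21 of 24 Xcr1/Clec9a cells, and in 33 of 48 Cd209a cells. The data therefore went against the name type 1 for Xcr1/Clec9a cells of Rbpj-deleted replicate 2. RNA of 8 monocyte genes summed to 9424, 20707.5 and 4127 CPM in Xcr1/Clec9a cells, with Lyz2 leading and Chil3 at 0. Ccr7 cells held 2169, 3227 and 6165 CPM of that list. Cd209a cells held 5779, 15102.5 and 11051 CPM, and the other barcodes 6059, 11960 and 6730 CPM. High monocyte RNA in Rbpj-deleted replicate 2 was thus not particular to its Xcr1/Clec9a cells. The part of this RNA in the comparisons was not tested. The sets are called by the genes that chose them.

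As sums, the Ccr7 cells fitted their label in all 3 libraries, but not every cell did. Summed markers of mature dendritic cells other than Ccr7 (9 genes, Fscn1, Ccl22 and Cacnb3 among them) stood at 7958, 7650 and 6019 CPM in Ccr7 cells, against 298, 1390 and 229 CPM in Xcr1/Clec9a cells and 340, 241 and 100.2 CPM in Cd209a cells. At least 2 of Fscn1, Ccl22 and Cacnb3 were seen in 63 of 80 Ccr7 cells (78.8%, exact 95% interval 68.2 to 87.1), against 2.51% of the other barcodes. By library these were 20 of 26, 16 of 18 and 22 of 29, and 10 of the 80 held none of the genes. In control replicate 1, 8 of 29 cells held no Cacnb3, with 10578 to 30734 UMIs each, so they weigh in that library's sums. The deepest of them held 29 UMIs of Naaa and none of Fscn1. Flt3 or Zbtb46 was seen in 52 of 80 (65.0%), near the 68.8% of Cd209a cells, against 7.45% of the other barcodes. The 12 microglial genes, some of which the rule limited, summed to 229.9, 401 and 96.5 CPM in Ccr7 cells, against 11353, 10398 and 6174 CPM in the other barcodes, with P2ry12 and Gpr34 at 0 in Ccr7 cells. At the rule's edge, barcodes with 1, 2 and at least 3 UMIs of Ccr7 held 178, 281 and 2302 CPM of Fscn1, and those with 1, 2 and at least 3 UMIs of Xcr1 and Clec9a held 248, 368 and 1405 CPM of Naaa, so cells just inside stood nearer to those just outside than to the rest. These edge groups held 27, 8 and 72 barcodes for Ccr7 and 77, 14 and 33 for Xcr1 and Clec9a.

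**Figure D1:**
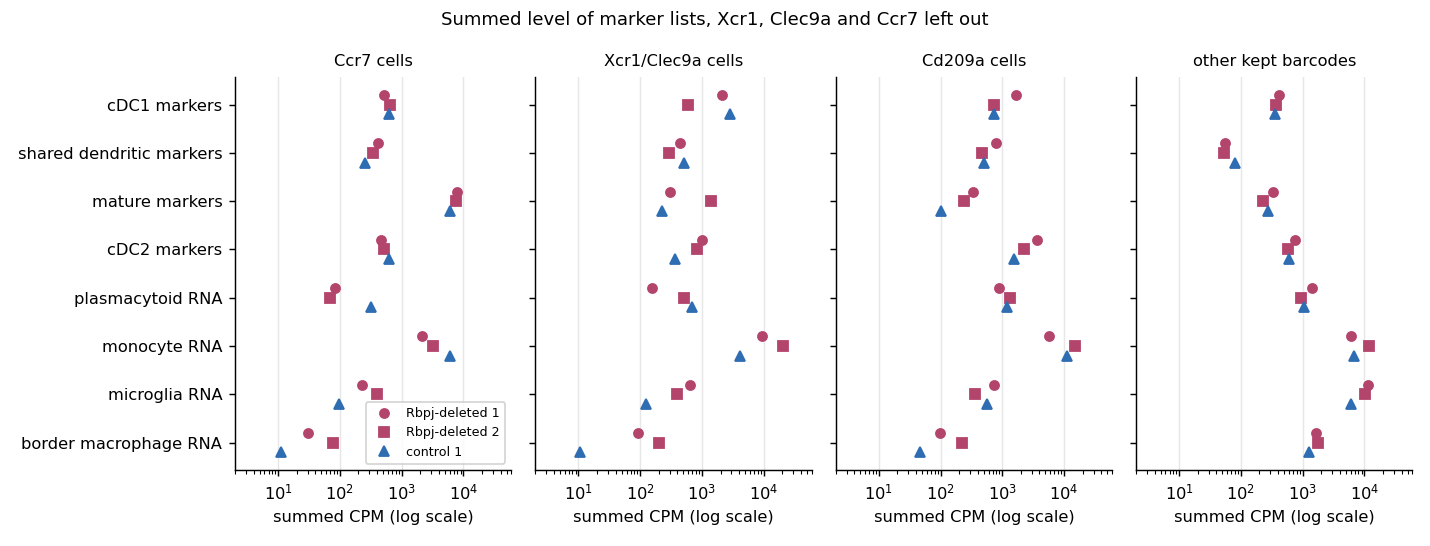
Summed marker RNA (CPM) of each marker list in Ccr7 cells, Xcr1/Clec9a cells, Cd209a cells and the other kept barcodes, 1 point per library for the 3 libraries fitted, with Xcr1, Clec9a and Ccr7 left out of the lists. The mature list stands at 6019 to 7958 CPM in Ccr7 cells, and the type 1 list in Xcr1/Clec9a cells is split between 596 CPM in Rbpj-deleted replicate 2 and 2125 and 2847 CPM in the other libraries; the microglial and border lists hold genes that the rule limited, and Cd209a, which chose the Cd209a cells, is on the type 2 list.

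Ccr7 cells were scarce, with the lowest shares in healthy brain. They made up 0.861% and 0.773% of kept barcodes in Rbpj-deleted libraries (26 of 3020 and 18 of 2329) and 2.37% and 0.397% in control libraries (29 of 1223 and 3 of 756), against 0.0279% and 0.0775% in healthy libraries (2 of 7181 and 2 of 2580). All 4 tumour libraries lay above both healthy ones. Their means differed by 1.05 percentage points, a 20.9-fold difference, with an exact two-sided permutation p of 0.133, the smallest that 4 libraries against 2 allow. Without control replicate 1 they differed by 0.624 points. Over barcodes low in microglial and border macrophage genes alone, tumour libraries averaged 3.64% and healthy ones 0.785%, a 4.63-fold difference. Rbpj-deleted libraries averaged 0.567 points below control libraries, with an exact permutation p of 1. The control libraries enclosed both Rbpj-deleted ones, and without control replicate 1 the sign turned, to 0.420 points.

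Xcr1/Clec9a cells made up 0.331% and 0.515% of kept barcodes in Rbpj-deleted libraries (10 and 12 cells). In control libraries, they made up 1.96% of replicate 1 (24 cells) and were not seen in replicate 2, where 0 of 756 allows up to 0.397% with 3 counts as the floor (exact 95% upper limit 0.487%). In healthy brain they were not seen in replicate 1, where 0 of 7181 allows up to 0.0418% in the same way (exact 0.0514%), and replicate 2 held 1 cell, 0.0388%. Tumour and healthy libraries overlapped at this depth (exact two-sided permutation p = 0.4). They did not overlap with cells thinned to 3000 UMIs, at 0.154% to 1.50% in tumours, where 1 barcode of control replicate 2 then passed the limits, against 0 in both healthy libraries (exact permutation p = 0.133). Control replicate 1 alone held 24 of the 47 cells, and Rbpj-deleted libraries averaged 0.558 points below control libraries with it but 0.423 points above without it (exact permutation p = 1 with all libraries). Shares describe dissected and sorted material, and exact intervals cover counting error only. Of Ccr7 and Xcr1/Clec9a cells together, Ccr7 cells were 72.2% and 60.0% in Rbpj-deleted libraries, 54.7% and 100% in control libraries and 100% and 66.7% in healthy libraries, out of 3 such cells in control replicate 2 and 2 and 3 in the healthy libraries.

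**Figure D2:**
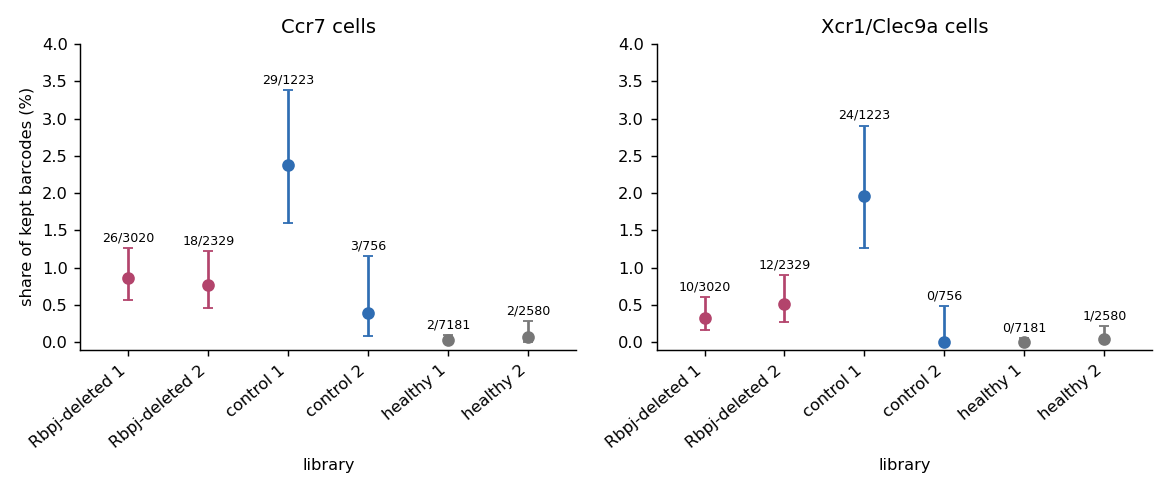
Share of kept barcodes (percent) that were Ccr7 cells or Xcr1/Clec9a cells in each of the 6 libraries, with exact 95% intervals for counting error. Ccr7 cells lie between 0.397% and 2.37% in the tumour libraries and at 0.0279% and 0.0775% in the healthy ones, and control replicate 1 stands above every other library for both sets.

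Ccr7 cells and Xcr1/Clec9a cells of the same library were then compared gene by gene. This asks how the sets differ within the same tumours. UMIs were summed per library and set and fitted with edgeR's quasi-likelihood test, with the library as a block, over all 2327 genes that passed the filter on low counts. At a Benjamini-Hochberg adjusted p under 0.05, 385 genes (16.5%) differed, 242 (10.4%) higher and 143 (6.15%) lower in Ccr7 cells; the median log2 difference of all genes was -0.02. Of the 80 called genes that belong to a list or the naming rule, 73 were tested without each of the 3 libraries in turn, and of these 73 kept their sign and 38 kept their call each time. The other 7 passed the filter in only 2 of these fits. Without Rbpj-deleted replicate 1, 34 of the 80 missed the threshold, and 189 genes were called in all. With every cell thinned to 3000 UMIs, which takes away the depth gap between the sets, 146 of 1051 tested genes were called (13.9%). Thinned cells were gated anew, and Rbpj-deleted replicate 2, left with 8 Xcr1/Clec9a cells, dropped out of this fit. Depth, cells and libraries thus changed together in every thinned result, and their parts were not tested.

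Genes of the NF-kB pathway, which carries signals of TNF receptors and pattern receptors and drives dendritic maturation, were mostly higher in Ccr7 cells. Of 17 genes on the list 13 were tested, and 8 rose and none fell, with a median log2 difference of 1.38, against -0.02 over all genes. Relb, the subunit of the alternative pathway that dendritic maturation needs, had 805, 751 and 648 CPM in Ccr7 cells, against 118, 172 and 61.0 CPM in Xcr1/Clec9a cells. No library overlapped, and the log2 difference was 2.88 ± 0.31 (SE, edgeR adjusted p = 0.00267). Birc2, a ubiquitin ligase of TNF receptor complexes, had 335, 205 and 243 CPM in Ccr7 cells, against 27.1, 27.1 and 21.0 CPM in Xcr1/Clec9a cells (log2 difference 3.48 ± 0.34, edgeR adjusted p = 0.00234). Traf1, an adaptor of the same receptors, rose by 2.20 ± 0.26 on the log2 scale. Nfkb2, the precursor that pairs with Relb, rose by 1.67 ± 0.25, the subunit Rel by 1.44 ± 0.21 and the inhibitor Nfkbia by 1.24 ± 0.19 on the log2 scale, with edgeR adjusted p at most 0.0292 whichever library was left out. Map3k14, the kinase that starts the alternative pathway, and the inhibitor Nfkbib rose by 2.08 ± 0.42 and 1.38 ± 0.31 but lost the call without Rbpj-deleted replicate 1 (edgeR adjusted p = 0.0589 and 0.103). The subunits Rela and Nfkb1 had log2 differences of 0.94 ± 0.38 and 0.33 ± 0.36 and did not pass (edgeR adjusted p = 0.136 and 0.589), nor did Nfkbie, Birc3 and Tnfaip3.

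NF-kB dimers bind a short motif, and members of the pathway are known to act on their own genes. The promoters of 4 genes are shown, picked for holding this motif among the list genes that were higher in Ccr7 cells under every left-out library; the table has 3 start sites for Nfkb2, each with a match, and the one with 2 upstream matches is shown. Sequences are from RefSeq (GRCm38.p6), 250 bases before to 50 after a start site, in lower case with capitals for each match to the motif, GGG, any 3 bases and then TTCC, on either strand. Nfkb2 lies at chr19:46304487-46304786 (plus strand), Nfkbia at chr12:55492598-55492897 (minus strand), Rel at chr11:23770920-23771219 (minus strand) and Gbp5, a guanylate-binding protein, at chr3:142496684-142496983 (plus strand).
Nfkb2: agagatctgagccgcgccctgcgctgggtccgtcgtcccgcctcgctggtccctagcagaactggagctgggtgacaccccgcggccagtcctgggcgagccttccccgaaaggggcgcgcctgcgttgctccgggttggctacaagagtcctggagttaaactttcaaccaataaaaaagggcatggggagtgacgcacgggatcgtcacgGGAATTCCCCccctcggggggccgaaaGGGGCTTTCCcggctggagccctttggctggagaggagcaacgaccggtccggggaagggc
Nfkbia: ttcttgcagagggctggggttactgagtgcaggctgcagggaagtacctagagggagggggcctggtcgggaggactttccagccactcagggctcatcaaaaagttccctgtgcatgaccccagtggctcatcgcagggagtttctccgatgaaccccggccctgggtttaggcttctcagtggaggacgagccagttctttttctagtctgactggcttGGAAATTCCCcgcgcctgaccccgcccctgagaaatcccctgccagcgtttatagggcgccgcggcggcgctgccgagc
Rel: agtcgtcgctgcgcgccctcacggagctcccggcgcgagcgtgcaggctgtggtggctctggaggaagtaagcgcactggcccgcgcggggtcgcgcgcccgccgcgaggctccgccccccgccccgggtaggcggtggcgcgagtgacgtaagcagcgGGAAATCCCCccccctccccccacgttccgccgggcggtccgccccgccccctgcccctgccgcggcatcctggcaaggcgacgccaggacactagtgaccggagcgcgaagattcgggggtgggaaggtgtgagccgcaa
Gbp5: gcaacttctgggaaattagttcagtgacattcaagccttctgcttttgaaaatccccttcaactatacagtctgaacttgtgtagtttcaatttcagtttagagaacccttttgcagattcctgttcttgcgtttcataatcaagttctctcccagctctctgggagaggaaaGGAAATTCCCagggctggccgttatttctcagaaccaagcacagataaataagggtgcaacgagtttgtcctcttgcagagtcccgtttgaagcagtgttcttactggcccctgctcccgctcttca
A promoter with these letters was found for 6.31% of 27025 genes, 9.23% of the 1863 tested genes that matched, 14.2% of the 197 matched genes higher in Ccr7 cells and 8.70% of the 115 lower ones. On the NF-kB list, 8 of 15 matched genes held it, but list members were picked for this pathway and some are known targets of it. A match describes the letters of this window alone.

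Of 8 tested survival genes 7 rose in Ccr7 cells and none fell, with a median log2 difference of 1.81. Serpinb6b, an intracellular protease inhibitor, had 1775, 1776 and 1764 CPM in Ccr7 cells, against 145, 677 and 159.9 CPM in Xcr1/Clec9a cells. The level in Ccr7 cells was nearly the same in the 3 libraries fitted. In control replicate 2, 1 of 3 Ccr7 cells held all 14 UMIs, and both healthy libraries held 0. Xcr1/Clec9a cells of Rbpj-deleted replicate 2 stood high, with 60 of 75 UMIs in 1 of the 12 cells. Between the sets the log2 difference was 2.87 ± 0.47 (edgeR adjusted p = 0.0106, and 0.0523 without Rbpj-deleted replicate 1). Serpinb9, the inhibitor of granzyme B, rose by 2.83 ± 0.59 on the log2 scale but not without control replicate 1 (edgeR adjusted p = 0.213). Cflar, which blocks death receptor signals, rose by 1.96 ± 0.30, and Gadd45b, a stress-induced gene, by 1.93 ± 0.32, both under every left-out library. Bcl2a1b and Bcl2a1d, anti-apoptotic genes of near-identical copies whose reads cannot be assigned with certainty, rose by 1.69 ± 0.26 and 1.40 ± 0.24. Cdkn1a, a cell cycle inhibitor, rose by 1.61 ± 0.41 but not without Rbpj-deleted replicate 1 or without control replicate 1 (edgeR adjusted p up to 0.15). Mcl1, the remaining gene, had a log2 difference of -0.06 ± 0.20 (edgeR adjusted p = 0.883).

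Of 12 tested genes of the cytoskeleton and migration 6 rose and 1 fell, with a median log2 difference of 1.46. This list was chosen with earlier results of these data known and holds the mature markers Fscn1 and Cacnb3, so its count is no separate evidence of maturation. Marcks, a membrane-bound actin regulator, had 2034, 1827 and 1717 CPM in Ccr7 cells, against 525, 686 and 412 CPM in Xcr1/Clec9a cells (log2 difference 1.90 ± 0.22, edgeR adjusted p = 0.00315). Its relative Marcksl1 had 989.8, 1443 and 1089 CPM, against 298, 226 and 118 CPM (log2 difference 2.64 ± 0.33, edgeR adjusted p = 0.00398). Both sets were well apart in every library. Fscn1, the actin bundler of dendritic protrusions, had 2289.5, 2160.1 and 2059 CPM in Ccr7 cells, against 27.1, 596 and 0 CPM in Xcr1/Clec9a cells. The Xcr1/Clec9a value of Rbpj-deleted replicate 2 stood far above the others, and with a log2 difference of 5.03 ± 1.77 the gene missed the threshold (edgeR adjusted p = 0.169). Of the 66 UMIs behind that value, 62 came from 1 of the 12 cells, and 10 cells held none. The same cell held all 16 UMIs of Cacnb3, 22 of 29 of Ccl22, 14 of 19 of Relb, 209 of 456 of Ccl5 and 11 of 37 of Il12b in those 12 cells. Without Rbpj-deleted replicate 2 the log2 difference of Fscn1 was 8.54 and passed (edgeR adjusted p = 0.00559). It also passed with thinned cells (edgeR adjusted p = 0.0157), a fit that likewise lacks that library and is no separate check. Cacnb3, a calcium channel subunit, Tbc1d4, a regulator of vesicle traffic, and Anxa3, an annexin, rose by 4.82 ± 0.89, 3.24 ± 0.58 and 1.93 ± 0.41 on the log2 scale, and each missed the threshold without Rbpj-deleted replicate 1 (edgeR adjusted p = 0.239, 0.0915 and 0.0516). The integrin chain Itgb1 rose by 1.02 ± 0.24 and Coro1a, an actin regulator of leukocytes, fell by 1.02 on that scale, neither under every left-out library (edgeR adjusted p up to 0.0724 and 0.128).

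Of the chemokine genes, 3 of 8 tested rose and none fell, with a median log2 difference of 0.92. Ccl22, a ligand of Ccr4 that draws regulatory and other T cells, had 2069.5, 1656 and 1262 CPM in Ccr7 cells, against 90.4, 262 and 135 CPM in Xcr1/Clec9a cells. Ccl17, the second ligand of that receptor, had 695, 1494 and 970.1 CPM, against 145, 181 and 67.3 CPM. For both genes every library of Ccr7 cells stood above every one of Xcr1/Clec9a cells, with log2 differences of 3.46 ± 0.34 and 3.19 ± 0.35 (edgeR adjusted p = 0.00234 and 0.00267). Cxcl16, the ligand of Cxcr6, rose by 1.46 ± 0.26. Ccl5, an inflammatory chemokine, had 13567, 20150 and 3814 CPM in Ccr7 cells, against 253, 4116 and 52.6 CPM in Xcr1/Clec9a cells, and missed the threshold (log2 difference 4.77 ± 1.09, edgeR adjusted p = 0.073). In Xcr1/Clec9a cells it was high in Rbpj-deleted replicate 2 only. There, 1 of 12 cells held 209 of the 456 UMIs, a second held 117, and 6 held none. It passed without that library (edgeR adjusted p = 8.97e-06) and with thinned cells, a fit that lacks the same library (edgeR adjusted p = 0.00375). Cxcl9, a ligand of Cxcr3 that is induced by interferon-gamma, had 2464, 2835 and 1563 CPM in Ccr7 cells, against 1528, 3024 and 1231 CPM in Xcr1/Clec9a cells, with libraries overlapping (edgeR adjusted p = 0.232); with cells thinned to 3000 UMIs its log2 difference turned to -1.97 (edgeR adjusted p = 0.04).

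The cytokine gene Il15, which supports NK cells and memory CD8 T cells, had 145, 145 and 90.9 CPM in Ccr7 cells, against 18.1, 9.03 and 10.5 CPM in Xcr1/Clec9a cells. It was higher in all 3 libraries (log2 difference 3.29 ± 0.44, edgeR adjusted p = 0.00435). Its presenting receptor Il15ra rose by 1.93 ± 0.48, with the call lost without either Rbpj-deleted library (edgeR adjusted p up to 0.111). They were the 2 cytokine genes that rose of 6 tested, with a median of 1.32. Il12b, a subunit of interleukin 12, which drives type 1 T cell responses, had 619.9, 393 and 827 CPM in Ccr7 cells, against 27.1, 334 and 18.9 CPM in Xcr1/Clec9a cells (log2 difference 3.18 ± 1.26, edgeR adjusted p = 0.191). The sets were far apart in Rbpj-deleted replicate 1 and control replicate 1 and close in Rbpj-deleted replicate 2. There, 2 of 12 Xcr1/Clec9a cells held all 37 UMIs, 26 and 11, and 1 of 18 Ccr7 cells held 39 of 46. Without that library the gene passed (log2 difference 5.29, edgeR adjusted p = 0.000131). It also passed with thinned cells, a fit that lacks the same library (edgeR adjusted p = 0.0157). A UMI of Il12b was seen in 36.2% of Ccr7 cells and 17.0% of Xcr1/Clec9a cells, against 1.72% of the other barcodes and 0 of 48 Cd209a cells.

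Costimulatory and inhibitory genes both rose in part in the summed Ccr7 cells. Whether single cells held both kinds was not tested. Of 5 costimulatory genes tested 3 rose (median 0.98): Cd40 by 1.78 ± 0.40, Tnfsf9, the ligand of Tnfrsf9 on T cells, by 1.60 ± 0.32, and Cd83 by 0.98 ± 0.23 on the log2 scale. None of these kept its call under every left-out library (edgeR adjusted p up to 0.0783, 0.0792 and 0.0952). Cd86 had a log2 difference of 0.64 ± 0.27 (edgeR adjusted p = 0.154). Cd80, the second ligand of Cd28, was too low for the filter, with 65.0, 51.2 and 93.7 CPM in Ccr7 cells and 18.1, 9.03 and 14.7 CPM in Xcr1/Clec9a cells. Of 5 inhibitory genes tested 3 rose (median 2.47). Cd274, the ligand of the checkpoint receptor Pdcd1, had 385, 367 and 322 CPM in Ccr7 cells, against 18.1, 153 and 56.8 CPM in Xcr1/Clec9a cells (log2 difference 2.47 ± 0.44, edgeR adjusted p = 0.0104). It was seen in 81.2% of Ccr7 cells and 40.4% of Xcr1/Clec9a cells, against 20.7% of the other barcodes. Socs1, which dampens cytokine signalling, and Cd200, a ligand of an inhibitory myeloid receptor, rose by 2.52 ± 0.44 and 2.70 ± 0.59 under every left-out library.

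Of 9 tested class II genes 6 fell in Ccr7 cells and none rose, with a median log2 difference of -0.76. H2-Ab1 had 5564, 2356 and 5900.4 CPM in Ccr7 cells, against 13005, 6364 and 10564 CPM in Xcr1/Clec9a cells (log2 difference -1.08 ± 0.18, edgeR adjusted p = 0.00781). H2-DMa, which helps peptide loading, had 425, 409.8 and 408 CPM, against 1764, 1119 and 918 CPM (log2 difference -1.47 ± 0.25, edgeR adjusted p = 0.00837). Ccr7 cells were lower in each library for both genes. Cd74, the invariant chain, fell by 0.72, H2-Aa by 0.76, H2-Eb1 by 0.76 and H2-DMb1 by 2.72 on the log2 scale. All 6 class II calls were lost without Rbpj-deleted replicate 1 (edgeR adjusted p up to 0.424, for H2-Eb1). H2-DMb1 shares sequence with its neighbour H2-DMb2, so its count is uncertain. In Ccr7 cells H2-Eb1 stood at 6318 and 4423 CPM in Rbpj-deleted libraries, 135 and 95.2 CPM in control libraries and 0 and 9496 CPM in healthy libraries. Of 14 class I genes 2 rose, Psme2, a proteasome activator with close copies elsewhere, by 1.33 ± 0.24 and B2m by 0.96 ± 0.19, and the chaperones Pdia3 and Calr fell by 1.11 and 0.78; the list's median was 0.49. These 4 also lost the call without Rbpj-deleted replicate 1.

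Receptors of uptake and lysosomal enzymes also differed between the sets. Cd36, a scavenger receptor for lipids and dying cells, had 0, 8.54 and 8.27 CPM in Ccr7 cells, against 136, 135 and 69.4 CPM in Xcr1/Clec9a cells (log2 difference -3.89 ± 0.70, edgeR adjusted p = 0.00998). Ly75, an endocytic receptor of dendritic cells, went the other way, with 195, 145 and 218 CPM in Ccr7 cells, against 63.3, 9.03 and 31.6 CPM in Xcr1/Clec9a cells (log2 difference 2.62 ± 0.42, edgeR adjusted p = 0.00708). They were the 2 called genes of 6 tested on the uptake list (median -0.62). Ppt1, a lysosomal thioesterase (chromosome 4, 122836242 to 122859175, GRCm38), had 30.0, 25.6 and 46.9 CPM in Ccr7 cells, against 841, 189.6 and 758 CPM in Xcr1/Clec9a cells. The lowest Xcr1/Clec9a value, of Rbpj-deleted replicate 2, still stood above each Ccr7 value (log2 difference -4.00 ± 0.36, edgeR adjusted p = 0.00206). Naaa, a lysosomal amidase, fell by 3.21 and Psap, the precursor of lysosomal lipid activators, by 2.13 on the log2 scale. Ppt1 and Naaa were the 2 of 7 type 1 identity genes that passed the test (median -1.37). Wdfy4, which cross-presentation needs, had 94.98, 59.8 and 22.1 CPM in Ccr7 cells, against 425, 54.2 and 518 CPM in Xcr1/Clec9a cells (edgeR adjusted p = 0.0633). Batf3 and Irf8, factors that type 1 cells depend on, had log2 differences of 0.65 ± 0.29 and -0.05 ± 0.38 and did not pass.

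**Figure D3:**
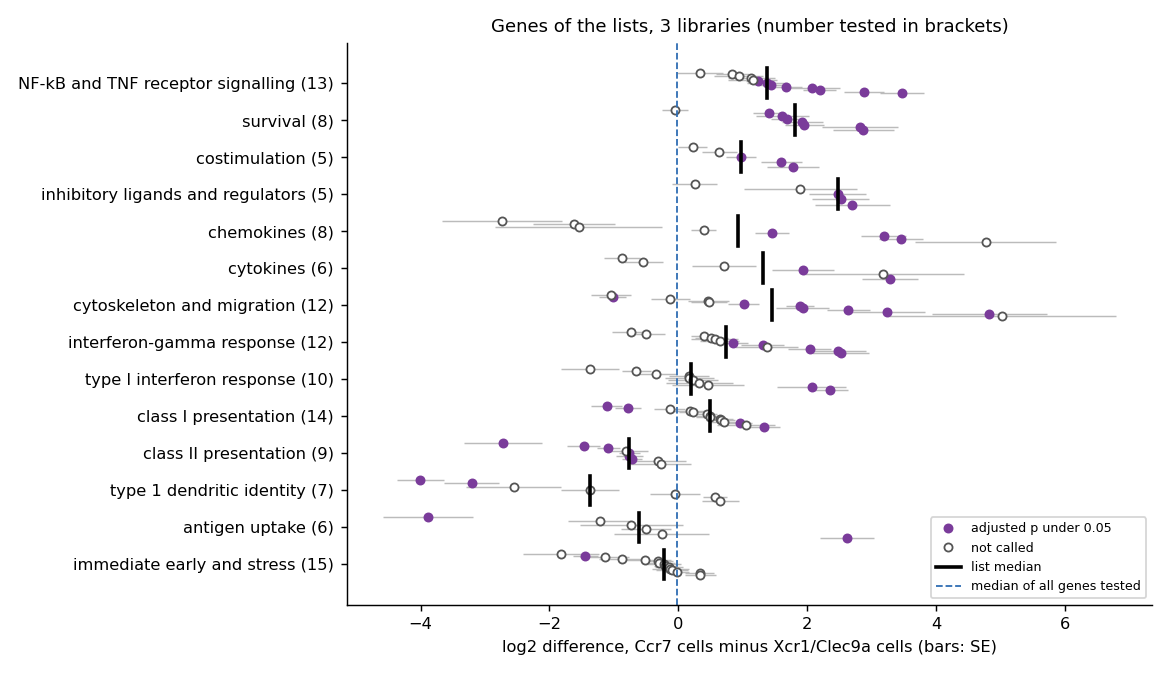
Log2 difference of each tested gene between Ccr7 cells and Xcr1/Clec9a cells (Ccr7 minus Xcr1/Clec9a), by gene list, with filled points for called genes, horizontal bars for the SE, and vertical bars for the list medians. The medians lie at 1.38 for NF-kB and TNF receptor genes, 1.81 for survival genes, 2.47 for inhibitory genes and -0.76 for class II genes, against -0.02 for all 2327 genes.

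Interferon response genes were mixed. Isg15, a ubiquitin-like protein induced by type I interferon, had 1415, 1443 and 879 CPM in Ccr7 cells, against 181, 298 and 265 CPM in Xcr1/Clec9a cells (log2 difference 2.36 ± 0.27, edgeR adjusted p = 0.00315), although with cells thinned to 3000 UMIs it missed the threshold (edgeR adjusted p = 0.136). Mx1 rose by 2.07 ± 0.53, with the call lost without Rbpj-deleted replicate 1 or control replicate 1 (edgeR adjusted p up to 0.132), and the other 8 of 10 type I genes tested were not called (median 0.20). On the interferon-gamma list 5 of 12 rose (median 0.74), Socs1 and Cd274 of the inhibitory list among them and Gbp5 by 2.04 ± 0.33. Gbp2 and Gbp8 rose by 0.85 ± 0.23 and 1.31 ± 0.33, neither under every left-out library (edgeR adjusted p up to 0.264 and 0.181), and Gbp8, which shares sequence with other family members, turned to -0.12 with thinned cells. Fos, an immediate early gene that tissue dissociation also induces, fell by 1.44 and was the 1 gene called of 15 on the stress list (median -0.22); without Rbpj-deleted replicate 1 it missed the threshold (edgeR adjusted p = 0.0575).

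Several of the largest differences fell outside these lists. Fabp5, a fatty acid carrier (chromosome 3, 10012548 to 10016607, GRCm38), had 1255, 3714 and 1298 CPM in Ccr7 cells, against 36.2, 153 and 37.9 CPM in Xcr1/Clec9a cells. The sets were far apart and Rbpj-deleted replicate 2 stood highest in both (log2 difference 4.98 ± 0.25, edgeR adjusted p = 0.00017). Ramp3, a partner of calcitonin family receptors, had 264 UMIs in Ccr7 cells and 2 in Xcr1/Clec9a cells, a ratio of 135 (95% counting interval 37.1 to 1122). Its relative Ramp1 ran the opposite way, with 5.0, 8.54 and 5.51 CPM in Ccr7 cells, against 99.5, 208 and 77.9 CPM in Xcr1/Clec9a cells (log2 difference -3.98 ± 0.51, edgeR adjusted p = 0.00435). Clu, a secreted chaperone, had 71 UMIs against 0, at least 24.2-fold higher with 3 counts as the floor over the summed libraries. Mir155hg, the host gene of a microRNA of immune activation, had 91 UMIs against 1, a ratio of 93.2 (16.3 to 3722). Stat4, a mediator of interleukin 12 signals, and Il7r, the interleukin 7 receptor, rose by 4.67 ± 0.66 and 4.41 ± 0.48 on the log2 scale. Slc27a3, of the fatty acid transport family, had 66 UMIs in Ccr7 cells, against 2 in Xcr1/Clec9a cells, a ratio of 33.8 (8.99 to 285).

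Others of the 10 largest rises were Nudt17, a nudix hydrolase, at 4.67 ± 0.78, Adgrg6, an adhesion receptor, with 56 UMIs against 2 (ratio 28.7, 7.58 to 243), and Apol7c, an apolipoprotein L gene with close copies, at 4.44 ± 0.85. Nudt17 and Apol7c missed the threshold without Rbpj-deleted replicate 1 (edgeR adjusted p = 0.0842 and 0.113). Among the 10 largest falls, St3gal5, the enzyme of ganglioside synthesis, Unc119, a lipid-binding chaperone, Gna15, a G protein subunit, Arhgap18, a GTPase-activating protein, P2ry6, a nucleotide receptor, and BC028528 differed by -3.56, -3.47, -3.32, -2.99, -2.90 and -2.99 on the log2 scale. In each of the 3 libraries these 6 stood lower in Ccr7 cells.

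**Figure D4:**
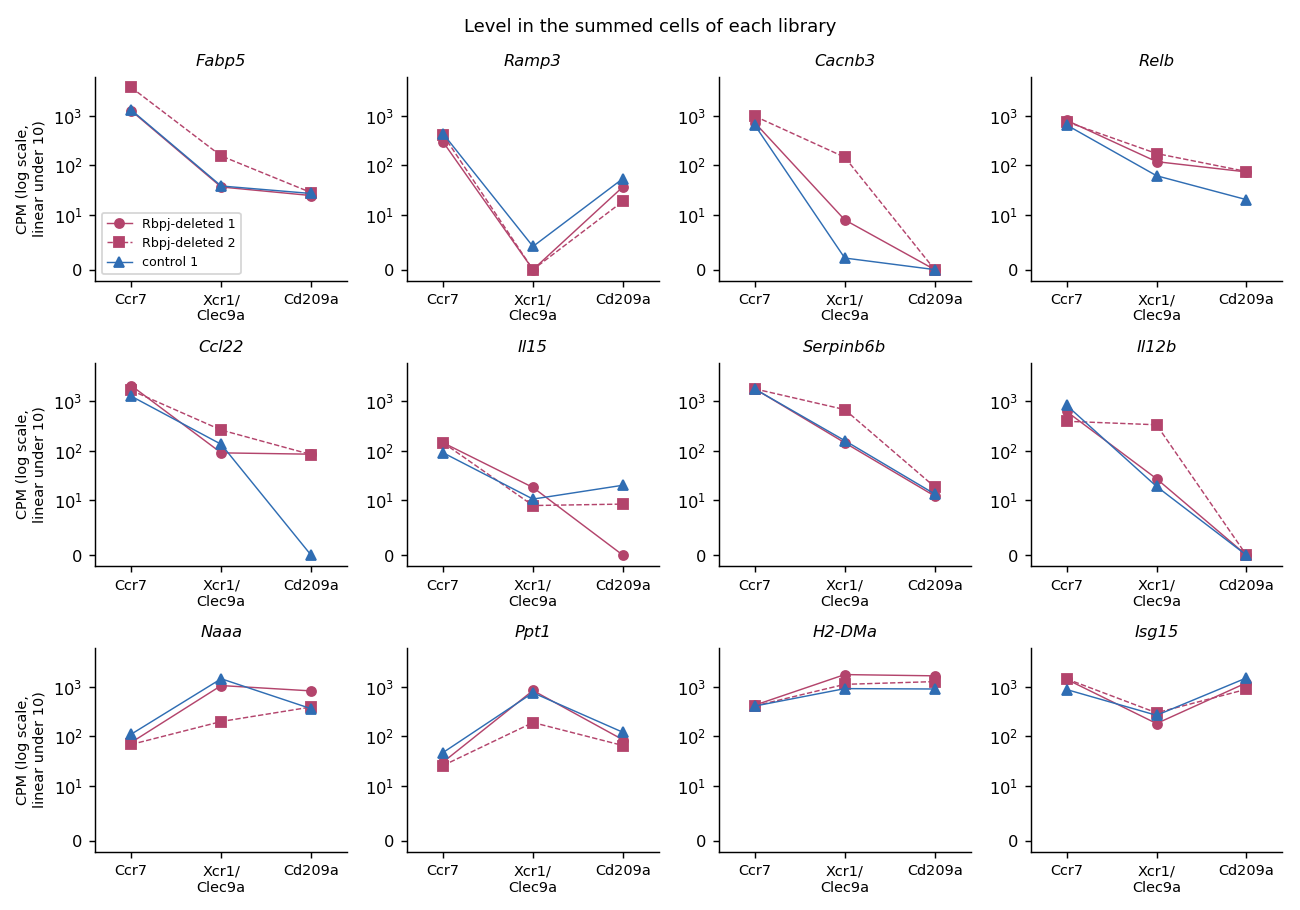
Level (CPM, log axis, linear under 10) of 12 named genes in Ccr7 cells, Xcr1/Clec9a cells and Cd209a cells, 1 marker per library for the 3 libraries fitted, with lines joining the sets of a library. Fabp5, Ramp3, Relb and Il15 stand higher in each library of Ccr7 cells and Ppt1 and Naaa lower, while Serpinb6b, Cacnb3 and Il12b have their highest Xcr1/Clec9a values in Rbpj-deleted replicate 2, where 1 or 2 of 12 cells hold most of these UMIs (60 of 75, 16 of 16 and 37 of 37).

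Against Cd209a cells of the same libraries, Ccr7 cells differed in 599 of 2022 genes (29.6%), 331 higher (16.4%) and 268 lower (13.3%), with an all-gene median log2 difference of 0.02 under the same edgeR fit. Scaling by library size alone moved that median to -0.21 and the split to 266 higher and 406 lower. The Ccr7 cells are the same ones as above, so both comparisons share their values. Il12b (chromosome 11, 44400063 to 44414033, GRCm38) had 619.9, 393 and 827 CPM in Ccr7 cells and no UMI in Cd209a cells of these libraries, at least 78.3-fold higher. Fscn1 had 2289.5, 2160.1 and 2059 CPM in Ccr7 cells, against 0, 37.2 and 0 CPM in Cd209a cells (log2 difference 7.61 ± 0.56, edgeR adjusted p = 0.00016). Ccl5 had 13567, 20150 and 3814 CPM in Ccr7 cells, against 425, 149 and 26.7 CPM in Cd209a cells (log2 difference 6.34 ± 0.48, edgeR adjusted p = 0.000456). These 3 genes were clear of Cd209a cells in each library, without the high values that Xcr1/Clec9a cells of Rbpj-deleted replicate 2 had shown.

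By list, 10 of 14 NF-kB genes rose in Ccr7 cells over Cd209a cells and none fell (median 1.52), as did 7 of 8 survival genes (2.48). Of 7 chemokine genes 5 rose, Cxcl16, Ccl5, Ccl22, Cxcl9 and Ccl17, and 2 fell, the inflammatory chemokines Ccl3 and Ccl4 (by 1.86 and 3.12). Of 13 class I genes 8 rose and 1 fell (median 0.77), among them H2-K1 by 1.45 ± 0.17, with reads shared with other class I copies, and Psme1 by 0.93 ± 0.16. Tapbp, Psmb8 and Psmb9 rose by 0.77, 0.69 and 0.76 but lost the call without Rbpj-deleted replicate 1 or control replicate 1 (edgeR adjusted p up to 0.183). Of 9 class II genes 6 fell (median -0.60), with H2-DMa falling by 1.40 under every left-out library and the other 5 losing the call without Rbpj-deleted replicate 1 (edgeR adjusted p up to 0.232, for H2-Eb1). Of the type I interferon genes, 7 of 15 fell and none rose (median -0.88), with Ifit3, Ifi204 and Rtp4 falling by 2.19, 1.54 and 1.73 under every left-out library, Ifit3 and Ifi204 being genes with close copies. Irf7, Xaf1, Ifit2 and Bst2 lost the call without at least 1 library (edgeR adjusted p up to 0.285).

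The type 1 factors Batf3 and Id2 were higher in Ccr7 cells than in Cd209a cells, with Batf3 at 245, 469.6 and 328 CPM, against 121, 111 and 120.3 CPM (log2 difference 1.71 ± 0.29, edgeR adjusted p = 0.00234). Id2 had 1639.6, 1229.5 and 1824 CPM in Ccr7 cells, against 449, 251 and 73.5 CPM in Cd209a cells (log2 difference 2.97 ± 0.51, edgeR adjusted p = 0.00756). Of the same list, Naaa and Wdfy4 fell by 2.32 and 1.50. Cacnb3, Apol7c, Zmynd15, Mreg, Insl6, Strip2 and Clu were seen in Ccr7 cells and held no UMI in Cd209a cells of the 3 libraries, at least 81.8, 35.1, 42.6, 29.1, 14.7, 13.2 and 11.8-fold higher. Cd63, a tetraspanin of endosomes with a close copy, had 449 UMIs against 1 (ratio 224, 40.1 to 8878). The lectins Cd209d and Clec10a stood lower, at -4.82 and -4.23 on the log2 scale. Cox6a2, Lifr, Ltb4r1, Cd300a, Tsc22d1, Gna15, Ccl4 and Iqgap2 completed the 10 largest falls, from -4.63 to -3.01; Gna15 missed the threshold without Rbpj-deleted replicate 1 (edgeR adjusted p = 0.0676). RNA of other cell types moved with the set: 4 of 4 monocyte genes tested (Ms4a4c, Plac8, Ly6c2, Lyz2) and 3 of 3 plasmacytoid genes (Siglech, Cox6a2, Tcf4) were lower in Ccr7 cells, the summed monocyte list at 2169, 3227 and 6165 CPM in Ccr7 cells, against 5779, 15102.5 and 11051 CPM in Cd209a cells. Siglech, also listed as a microglial marker, led the plasmacytoid list in the other kept barcodes too, at 878 CPM. The part of such RNA in the differences was not tested.

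Between Xcr1/Clec9a cells and Cd209a cells, the same edgeR fit called 24 of 1738 genes (1.38%), 9 higher (0.518%) and 15 lower (0.863%). Serpinb6b had 145, 677 and 159.9 CPM in Xcr1/Clec9a cells, against 12.1, 18.6 and 13.4 CPM in Cd209a cells (log2 difference 4.40 ± 0.46, edgeR adjusted p = 0.00336). Ppt1 had 841, 189.6 and 758 CPM, against 85.0, 65.0 and 120.3 CPM (log2 difference 2.66 ± 0.33, edgeR adjusted p = 0.00668), and was the 1 gene called of 8 on the type 1 identity list (median 1.29). Cxcl2, a neutrophil chemokine, Dnase1l3, an extracellular DNA nuclease, and Txn1, thioredoxin, rose by 5.25 ± 0.67, 3.24 ± 0.41 and 1.92 ± 0.23. Isg15 had 181, 298 and 265 CPM in Xcr1/Clec9a cells, against 1202, 892 and 1510.0 CPM in Cd209a cells, lower in each library. With Ifit3, Rtp4 and Ifi204 it made up the 4 of 10 type I interferon genes that fell (median -1.39). RNA of other cell types moved with these genes. Siglech, on the plasmacytoid list but also a microglial marker, fell by 1.72 (edgeR adjusted p = 0.0343). The 9 plasmacytoid genes summed to 154, 506 and 697 CPM in Xcr1/Clec9a cells, against 898, 1319 and 1196 CPM in Cd209a cells. The other barcodes of these libraries held 1419, 939 and 1051 CPM, and which cells gave this RNA was not tested. Of 5 monocyte genes tested 1 fell, Ms4a4c (median -1.17), and the part of this RNA was not tested. The remaining falls named by rule were Cd209d, Clec10a, Ms4a4c, Fcgr1, Ms4a6d and S100a6, from -4.57 to -1.73 on the log2 scale, and the remaining rises Cxcl16, Bcl2a1a (of the near-identical copies), Psap and Tmsb4x, from 1.60 to 0.55. None of the 20 called list and rule genes kept its call under every left-out library: without Rbpj-deleted replicate 1 no gene was called, and without control replicate 1, 3 were.

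Cells of the 3 groups could be compared gene by gene only for Ccr7 cells, since Xcr1/Clec9a cells filled just 1 control library. The limit of 10 cells per library left no pair of groups, so libraries with at least 2 Ccr7 cells were used instead, a choice made after seeing the data, with 1440 genes tested. Control replicate 2 held 3 Ccr7 cells, and each healthy library held 2, of which 1 cell gave 68.5% and 83.8% of the UMIs. Between Rbpj-deleted and control tumours, edgeR called 0 genes at adjusted p under 0.05 and DESeq2 0, with 64 genes (4.44%) at an unadjusted edgeR p under 0.05 and 539 (37.4%) whose libraries did not overlap. Control tumours differed from healthy brain in 2 genes (0.139%), with 194 (13.5%) at an unadjusted p under 0.05 and 654 (45.4%) whose libraries did not overlap. Lyz2, the lysozyme of myeloid cells, which shares sequence with another gene, had 4619 and 6089.8 CPM in Ccr7 cells of control libraries, against 72.9 and 0 CPM in those of healthy libraries (edgeR adjusted p = 0.0452). The summed list of 8 monocyte genes moved with it, at 6165 and 11704 CPM in control and 72.9 and 0 CPM in healthy libraries, and its part was not tested. Cxcl9 had 2464 and 2835 CPM in Rbpj-deleted and 1563 and 2823 CPM in control libraries, against 0 in both healthy ones (edgeR adjusted p = 0.0452 for control against healthy and 0.0648 for Rbpj-deleted against healthy). With DESeq2's scaling in edgeR, 0 genes were called between control tumours and healthy brain, these 2 included. Rbpj-deleted tumours against healthy brain gave 0 genes by edgeR, with 151 (10.5%) at an unadjusted p under 0.05, and 15 by DESeq2; both tumour groups share the healthy libraries. The split of the libraries by H2-Eb1 runs along the tumour groups, and the genotype cannot be told apart from it.

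The few Ccr7 cells of healthy brain also held RNA of maturation genes. Relb had 805 and 751 CPM in Rbpj-deleted, 648 and 444 CPM in control and 1094 and 1345 CPM in healthy libraries. Fscn1 had 2289.5 and 2160.1 CPM in Rbpj-deleted, 2059 and 1015 CPM in control and 4011 and 1899 CPM in healthy libraries. The healthy libraries lay within or above the tumour ones for both. Ccl22 had 2069.5 and 1656 CPM in Rbpj-deleted, 1262 and 1459 CPM in control and 14805 and 791 CPM in healthy libraries, the 2 healthy ones lying at the extremes. Isg15 had 1415 and 1443 CPM in Rbpj-deleted and 879 and 2379 CPM in control libraries and no UMI in healthy ones. Il12b had 619.9 and 393 CPM in Rbpj-deleted and 827 and 190.3 CPM in control libraries and likewise no UMI in the 4 healthy cells. Neither passed the edgeR test against healthy brain.

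**Figure D5:**
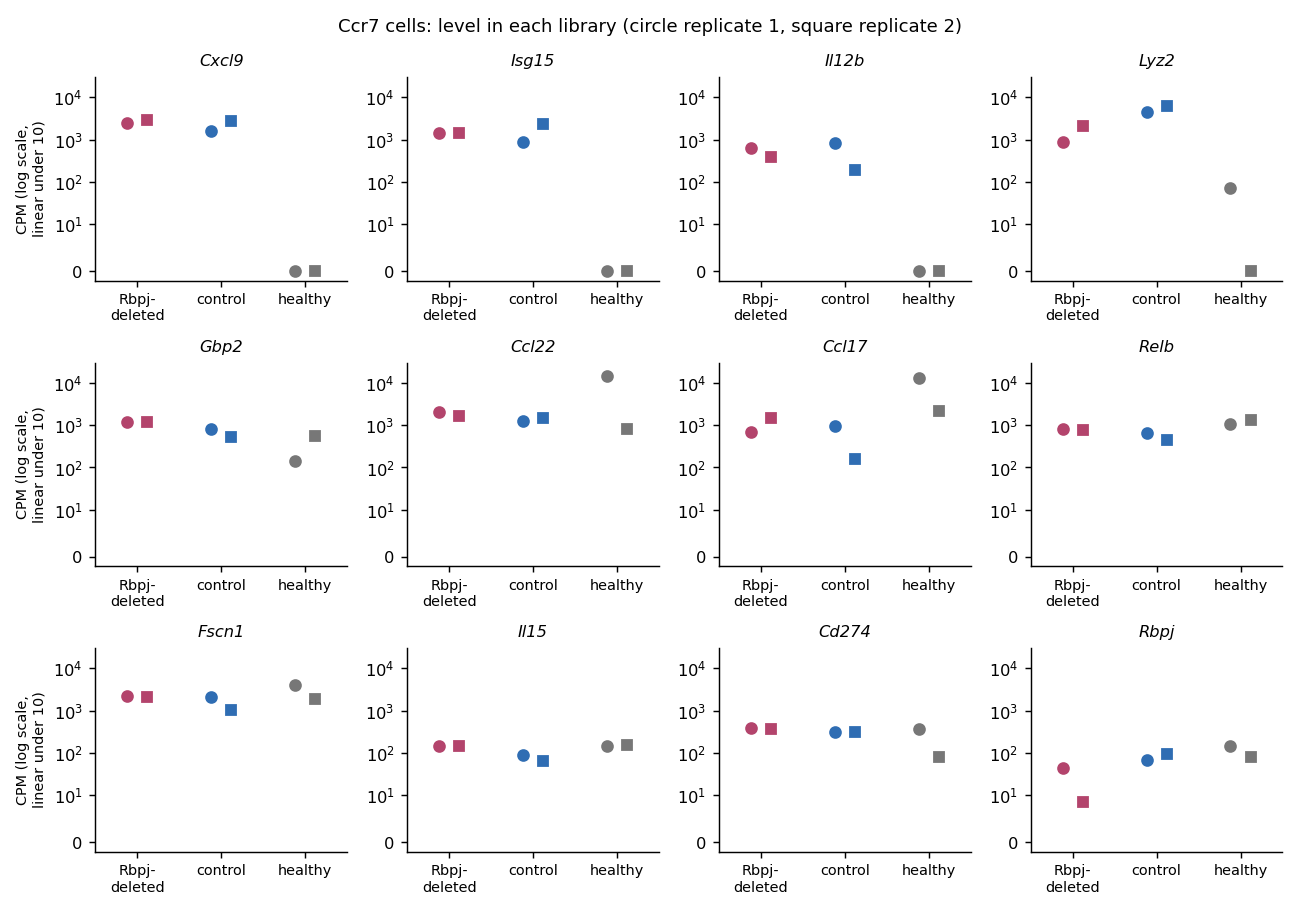
Level (CPM, log axis, linear under 10) of 12 genes in Ccr7 cells of each of the 6 libraries, grouped as Rbpj-deleted tumour, control tumour and healthy brain. Cxcl9 lies between 1563 and 2835 CPM in the tumour libraries and at 0 in both healthy ones, which hold 2 cells each, while control replicate 2 holds 3.

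Rbpj, the DNA-binding partner of Notch receptors, had 45.0 and 8.54 CPM in Ccr7 cells of Rbpj-deleted libraries, 68.9 and 95.2 CPM in control and 146 and 79.1 CPM in healthy libraries. Outside Rbpj-deleted replicate 1 and control replicate 1 these values rest on very few UMIs of Rbpj. The summed Ccr7 cells held 117122 UMIs of all genes in Rbpj-deleted replicate 2, 31528 in control replicate 2 and 13712 and 12637 in healthy libraries. The values therefore do not show whether these cells carry the deletion. Xcr1/Clec9a cells held 118, 108 and 124 CPM, with the Rbpj-deleted and control libraries close together. Notch2, a receptor that dendritic cells use in differentiation, had 115, 76.8 and 105 CPM in Ccr7 cells, against 271, 135 and 250.4 CPM in Xcr1/Clec9a cells (log2 difference -1.06 ± 0.28, edgeR adjusted p = 0.0383, and up to 0.241 with a library left out). It was the 1 gene called of 3 tested on the Notch list of 18. The target Hes1 gave 1 UMI in the 80 Ccr7 cells.

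Some genes were too low for the tests and are given as levels. Cxcr3, a receptor for interferon-induced chemokines such as Cxcl9, had 48 UMIs in 38.3% of Xcr1/Clec9a cells and no UMI in the 80 Ccr7 cells, where 3 counts as the floor allow up to 3.75% of cells with a UMI; the other barcodes stood at 11.7%. Tlr3, a receptor for double-stranded RNA, was seen in 38.3% of Xcr1/Clec9a cells and no Ccr7 cell, against 28.4% of the other barcodes. Socs2, a feedback inhibitor of cytokine signals, was seen in 48.8% of Ccr7 cells and 10.6% of Xcr1/Clec9a cells, against 2.66%. Cd70, a costimulatory ligand, was seen in 18.8% of Ccr7 cells and 4.26% of Xcr1/Clec9a cells, against 0.574%. Ido1, an enzyme that degrades tryptophan, gave 1 UMI in each set, and Il4i1, an enzyme often listed with mature cells, gave 5 and 0. Mki67 or Top2a, of dividing cells, was seen in 18.8% of Ccr7 cells and 36.2% of Xcr1/Clec9a cells, against 16.2%, with Xcr1/Clec9a cells the deeper set.

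The 9 cells that passed both gates came as 4 from Rbpj-deleted and 5 from control libraries and none from healthy brain. At least 2 of the type 1 genes were seen in 7 of them, and at least 2 of Fscn1, Ccl22 and Cacnb3 in 2. The summed mature list stood at 3202 and 153 CPM in Rbpj-deleted and 279 and 8380 CPM in control libraries. In control replicate 1 they also held 3563 CPM of 9 plasmacytoid genes, with Siglech at 1022 CPM. That library's Xcr1/Clec9a cells, Ccr7 cells and other barcodes held 697, 320 and 1051 CPM of the list. With 1 to 4 cells per library no test was run on them.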

How the data were processed

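Single-cell RNA was measured in 6 libraries of CD45+ cells. The authors deposited 1 table of whole-number UMI counts per gene and barcode, not normalized (27378 gene IDs); the submitters' processing notes name kallisto 0.46.0, bustools 0.39.3 and mm10. Barcodes under 500 genes or over 10% mitochondrial counts were dropped, as were index-hopped copies (over 10 times fewer counts than the same sequence elsewhere). The cells were gated on raw counts as described. The members and gene lists were chosen with earlier results of these data known. No doublet caller was run.

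Counts were summed per library and set where both sets held at least 10 cells, and fitted with edgeR 4.0.16 (quasi-likelihood, TMM, low counts filtered, library block; limma 3.58.1, R 4.3.3), with Benjamini-Hochberg adjustment over all genes tested. Group comparisons had no block. DESeq2 1.42.0 was an alternative, with other scalings, filters and gates, cells thinned to 3000 UMIs (gated anew, 2223 shallower barcodes left out), and each replicate left out. Genes that chose cells were not tested. Genes named are up to 10 largest rises and falls per comparison with adjusted p below 0.05, a level of 50 CPM or more in the higher set, and 1 direction in every library, plus list members. On simulated data, the Ccr7 against Xcr1/Clec9a fit recovered 20.7% of genes changed by 1 and 81.5% of genes changed by 2 on the log2 scale (2388 genes). The simulation gave every gene the same spread and had no single cells holding most UMIs of a gene, so it does not cover genes such as Fscn1. Some genes sharing 31-base stretches of transcript with another gene are called uncertain where named. Others were not marked there. Among these are Stat4 and Ly6c2 (23.7% of stretches shared each), Pcna (23.3%), Ms4a4c (17.1%), Clec10a (14.8%), Isg15 (12.8%), Rtp4 (12.5%) and Rbpj (11.4%). Gene positions are from GENCODE, promoters from RefSeq (GRCm38.p6). Shares were compared by exact permutation over every split of the libraries. The 95% intervals are Clopper-Pearson (scipy 1.17.1), and 3 counts served as the floor at 0. Intervals and floor cover counting error only.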

Additional observations from a re-analysis of the deposited data

How the results depend on the processing

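Ccr7 shares in tumours stood above those of healthy brain under every alternative run. The Rbpj-deleted minus control difference turned to 0.420 points without control replicate 1 (range with 1 replicate left out -1.55 to 0.420) and to 0.728 points over barcodes low in microglial and border genes. For Xcr1/Clec9a cells it ran from -1.54 to 0.423 points, and control minus healthy from -0.0194 to 1.94. For the Ccr7 share among both sets, with 1 replicate left out, Rbpj-deleted minus control ran from -33.9 to 11.4 points (3.84 with thinned cells), Rbpj-deleted minus healthy from -33.9 to -0.556, control minus healthy from -28.6 to 16.7 (10.7 without healthy replicate 1) and tumours minus healthy from -28.3 to 5.07. Genes called between Ccr7 and Xcr1/Clec9a cells numbered 252 by DESeq2, 715 with no filter, 146 of 1051 with thinned cells and 189 to 482 with a replicate left out. Against Cd209a cells, Ccr7 cells gave 339 by DESeq2 and 337 to 497, and Xcr1/Clec9a cells 147 with no filter, 8 with no library block and 0 to 31. In Ccr7 cells, Rbpj-deleted against control gave 15 with no filter, 0 to 18 with a replicate left out, and 1 with the replicate number as a block; control against healthy gave 31 by DESeq2, 50 with no filter, 0 with DESeq2's scaling and 1 to 48; Rbpj-deleted against healthy gave 15 by DESeq2, 26 with no filter and 0 to 61. A term for a different Ccr7 minus Xcr1/Clec9a difference in each tumour group was also fitted, but rests on 1 control library and is given as no test of the groups. Same-numbered libraries did not deviate together in their Ccr7 cells (r of 0.106, -0.00164 and -0.0212 over 2028 genes). With 3 such cells in control replicate 2 and 2 in each healthy library, this cannot decide whether the numbers pair them. Pcna turned to -1.80 against Cd209a cells with at least 3 UMIs of the gate genes, and Gbp8 and Cxcl9 to -0.12 and -1.97 with thinned cells. The stricter gates left several comparisons under 2 libraries and could not be fitted. The causes were not tested. A set of 2 or 3 cells in a library limits every value in healthy brain and control replicate 2.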

Other observations

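Ccr7 cells differed from Cd209a cells in further gene groups. Of 12 tested genes of the cytoskeleton and migration 7 rose and 2 fell, Coro1a and Gsn, with a median log2 difference of 1.90, by edgeR as above. On the immediate early and stress list 5 of 15 fell (Dnajb1, Egr1, Jund, Jun and Ier2) and none rose, with a median of -0.73. Ccr2, the receptor that brings monocytes into tissue, was too low for the test and was seen in 3.75% of Ccr7 cells and 40.4% of Xcr1/Clec9a cells, against 9.89% of the other barcodes, at 0, 0 and 24.8 CPM in the summed Ccr7 cells and 109, 63.2 and 50.5 CPM in the Xcr1/Clec9a cells.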
